A study of Mus musculus with 9 samples.

Results

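The 8 RNAs described here were each read almost only in 1 of the 2 parent strains of a lupus-prone mouse hybrid. They are the protein-coding genes Htatip2 and Guca1a and the non-coding genes Gm42031, BC023719, 1700097N02Rik, AC139671.1, Gm15915 and Gm11837, taken by symbol and found as 8 of the 31053 genes of the count table. The 8 were selected on their UMI counts, which differed between the parents and, for most, between the hybrid and the mean of the parents' log levels. Both contrasts are therefore described here without a test. Against the plain mean of the 2 parents, the hybrid level stood between 92.2% (Gm15915) and 144% (1700097N02Rik). NZW (New Zealand White) and NZB (New Zealand Black) mice and their F1 hybrid NZBWF1, a model of systemic lupus erythematosus, were compared, with 3 female mice of 9 to 10 weeks in each strain, no treatment, and no engineered allele named. Each mouse gave 1 droplet library of femur bone marrow, in which a unique molecular identifier (UMI) marks each captured RNA molecule near its 3′ end. Between 7678854 and 16373447 UMIs per mouse were kept in 36525 cells of 68444 barcodes called as cells, and a level is given in CPM, the UMIs of a gene scaled to a fixed total of UMIs per sum. The model is limited in that every mouse of a parent strain carries the same inbred genome and that each hybrid carries a copy of every autosome from each parent.

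As background, inbred strains differ by fixed sequence variants and by insertions of mobile elements, and a variant next to a gene can change how much RNA its own copy makes. In an F1 hybrid both parental copies sit in the same nucleus, but its total level does not tell which copy made the RNA, and the copies were not counted apart here. Many long non-coding RNAs are made in only a few blood lineages. Reads are aligned to a single reference genome, which belongs to neither parent, so a molecule whose sequence departs from it may be missed.

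Of the genes, 6 were low in NZW (Gm42031, BC023719, Htatip2, Guca1a, Gm15915 and Gm11837) and 2 were low in NZB (1700097N02Rik and AC139671.1). The parent with the higher mean is called the expressing parent below. In each of the 8, all 3 hybrid mice lay above every mouse of the low parent and under every mouse of the expressing parent, as the plot of levels by mouse shows. The order against the low parent is tied to the choice of the genes, and the share of all genes with such an order was not counted. The gap to the expressing parent was narrow in 1700097N02Rik (36.4 against 37.4 CPM), Gm15915 (10.8 against 11.5) and Guca1a (7.03 against 7.89). The plotted levels run over all kept cells, where fewer cells of a type and less RNA per cell cannot be told apart.

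**Figure D1:**
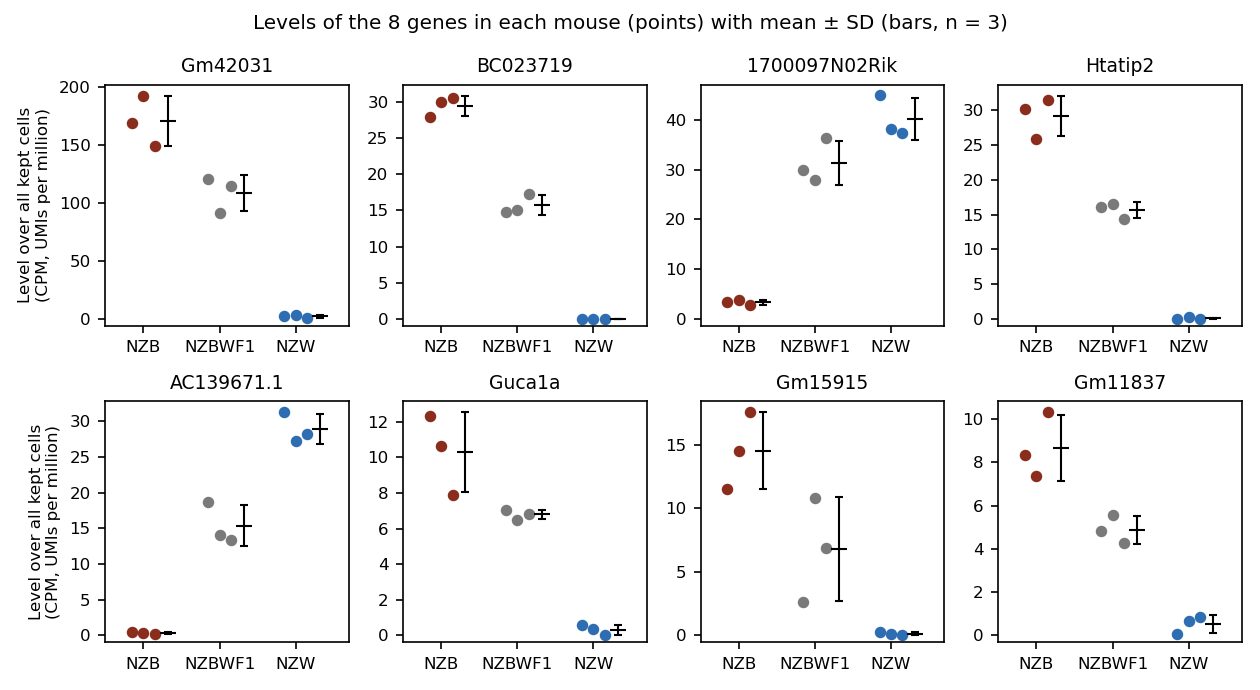
Level of each gene over all kept cells in each mouse (points, CPM on a linear axis that differs between panels), with the mean and SD of the 3 mice of a strain beside them. In every panel the NZBWF1 mice lie between the parents without overlap, narrowly against the expressing parent for 1700097N02Rik, Gm15915 and Guca1a. BC023719 is at 0 in the 3 NZW mice.

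Htatip2 encodes a dehydrogenase-like protein known as an inhibitor of nuclear import. It lies on the plus strand of chromosome 7 at 49759115 to 49773975 (GRCm38, GENCODE M21). The NZB mice held 250, 377 and 335 UMIs of it and the NZBWF1 mice 124, 260 and 236, against 0, 3 and 0 in NZW. Mean levels were 29.2 ± 2.91 CPM in NZB (SD, n = 3), 15.7 ± 1.15 in NZBWF1 and 0.0670 ± 0.116 in NZW. The 3 UMIs of NZW put its level at 0.229% of NZB, and counting error alone allowed 0.0507% to 0.718% (exact Poisson interval). All 3 lay in erythroid cells of 1 mouse.

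Guca1a encodes a calcium sensor that activates guanylate cyclase in photoreceptors, and it lies on the minus strand of chromosome 17 at 47394558 to 47400584. It had 102, 155 and 84 UMIs in NZB, 54, 102 and 112 in NZBWF1, and 7, 5 and 0 in NZW. The means were 10.3 ± 2.25 CPM in NZB, 6.79 ± 0.265 in NZBWF1 and 0.298 ± 0.282 in NZW (SD, n = 3), so the lowest NZB mouse, at 7.89 CPM, stood close above the highest hybrid, at 7.03. The retinal genes it works with were nearly absent. Among phototransduction genes, Guca1b, Gucy2f, Gnat1 and Crx had no UMI in any mouse, the most read was Sag with 146 UMIs, and none reached the level needed for a test in any cell class.

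Gm42031 was the most abundant of the 8. It is a 2-exon intergenic RNA on the minus strand of chromosome 8 at 85125872 to 85132289. NZB mice held 1397, 2797 and 1588 UMIs and NZBWF1 mice 926, 1429 and 1874. In NZW 29, 50 and 14 UMIs remained, a level of 2.21 ± 1.19 CPM or 1.30% of the 170 ± 21.6 CPM of NZB, while NZBWF1 stood at 109 ± 15.5 (SD, n = 3). The annotated transcript shared a run of at least 90 bases at 95% identity or more with 4 other genes, the longest being 748 bases of Gm43305 at 98.7%. For 1 of the 4 the shared sequence reached into the last 100 bases of Gm42031. Only annotated transcripts were searched, so copies elsewhere in the genome would not be seen. The counts of Gm42031 are therefore uncertain, as the counting could have split or dropped reads among such copies.

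BC023719 was the gene with no UMI at all in the low parent. It is an antisense RNA in the major histocompatibility complex on chromosome 17, on the plus strand at 36111426 to 36117121, and lies wholly inside Gm7030 on the other strand, which had no UMI in any mouse. The 3 NZW mice gave 0 UMIs of 41814761, which, by the limit of 3 UMIs that a count of 0 allows, puts the level at up to 0.0717 CPM. With 231, 437 and 325 UMIs, NZB stood at 29.5 ± 1.38 CPM (SD, n = 3), at least 411-fold higher than that floor of 3 UMIs over the group. NZBWF1 held 114, 237 and 283 UMIs, or 15.8 ± 1.33 CPM.

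A near copy of BC023719 lies in the same complex. A930015D03Rik matched it over 871 aligned bases at 96.4% identity, up to the last bases of both transcripts. A 3′ library captures RNA near that end. The 60 aligned bases next to the ends are shown because they tell how few letters separate the pair, with the 3 differing positions in capitals. They lie at chr17:36117054-36117113 (BC023719) and chr17:36038373-36038432 (A930015D03Rik) on the plus strand of GRCm38.
BC023719: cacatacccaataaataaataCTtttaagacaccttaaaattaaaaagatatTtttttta
A930015D03Rik: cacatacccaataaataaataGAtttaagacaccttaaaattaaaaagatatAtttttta

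A930015D03Rik ran the other way between the parents. It had 9, 37 and 27 UMIs in NZB, 90, 73 and 58 in NZW and 28, 68 and 68 in NZBWF1. Both genes together gave 31.6 CPM in NZB against 5.37 in NZW and 19.8 in NZBWF1. The copy made up only 2.06 CPM of the NZB sum. The order of the sum thus follows from the gap for which BC023719 was chosen, and nothing is read from it. Whether reads were dropped or moved between the pair was not tested. In erythroid cells the copy differed between NZB and NZW by -0.61 on the log2 scale (SE 0.51), which did not pass the test (edgeR, adjusted p = 0.545).

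Among the 2 RNAs low in NZB, AC139671.1 (named Gm39556 in the annotation release used here) is an intergenic RNA on the plus strand of chromosome 15 at 74929437 to 74936316, beside the Ly6 surface antigen genes. NZW mice held 391, 406 and 405 UMIs, NZBWF1 mice 143, 220 and 219, and NZB mice 4, 4 and 2. The level was 28.9 ± 2.12 CPM in NZW, 15.3 ± 2.86 in NZBWF1 and 0.316 ± 0.152 in NZB (SD, n = 3), or 1.09% of NZW. Sequence shared with 20 other genes over at least 90 bases did not reach its last 100 bases. Whether reads fell within the shared sequence was not tested.

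1700097N02Rik was the least complete absence of the 8. It lies on the minus strand of chromosome 17 at 30622441 to 30626905 and overlaps Glo1, the glyoxalase that detoxifies methylglyoxal, by 4431 bases on the same strand and Dnah8, an axonemal dynein gene, by 2552 bases on the other. NZB mice had 28, 54 and 30 UMIs, NZW mice 563, 571 and 538, and NZBWF1 mice 230, 438 and 596. NZB reached 3.31 ± 0.454 CPM, or 8.22% of the 40.2 ± 4.17 of NZW, and NZBWF1 31.4 ± 4.42 (SD, n = 3). Both overlapping genes ran in the same order. Dnah8 stood at 3.15 ± 0.564 CPM in NZB, 20.4 ± 4.41 in NZW and 15.6 ± 2.16 in NZBWF1, and Glo1 at 61.7 ± 1.74, 104 ± 10.8 and 69.8 ± 6.67.

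Gm15915 and Gm11837 were the pair read mostly in erythroid cells. Gm15915 lies on the minus strand of chromosome 10 at 93674218 to 93683322, inside Ntn4, a secreted netrin, on the other strand. It had 95, 211 and 187 UMIs in NZB, 20, 169 and 113 in NZBWF1 and 3, 2 and 1 in NZW. Means were 14.5 ± 3.04 CPM in NZB, 0.148 ± 0.0860 in NZW and 6.76 ± 4.09 in NZBWF1 (SD, n = 3), and of the hybrids mouse 1 stood lowest, at 2.60, against 10.8 and 6.90. That mouse also had the fewest erythroid cells, 61 against 310 and 170 in the other hybrids, and their part in its level was not tested.

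Gm11837 lies on the plus strand of chromosome 4 at 14929908 to 14953030 and overlaps Necab1 by 786 bases on the other strand. It had 69, 107 and 110 UMIs in NZB, 37, 87 and 70 in NZBWF1, and 1, 10 and 12 in NZW. Its means were 8.68 ± 1.51, 4.88 ± 0.640 and 0.528 ± 0.397 CPM in that order (SD, n = 3), and NZW reached 6.09% of NZB. The sources do not state whether strand entered the counting, so reads of Gm15915 and Ntn4, or of 1700097N02Rik and Dnah8, may not be fully told apart. Strand cannot separate 1700097N02Rik from Glo1, which lies on the same strand. Its transcript shared 94 bases with Glo1 at 98.9% identity, none of them in its last 100 bases. Whether reads fell within those 94 bases was not tested.

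Of the non-coding genes, 2 had the poly(A) signal AATAAA, searched on the transcript strand, within the last 50 bases of an annotated transcript, a feature of 30.9% of 15653 non-coding transcripts. Their last 100 bases are shown, with the signal in capitals, because a 3′ library captures RNA near such an end. They lie at chr17:30622441-30622540 (1700097N02Rik) and chr10:93674218-93674317 (Gm15915), both on the minus strand of GRCm38. A match is a description of these letters and no proof that the site is used.
1700097N02Rik: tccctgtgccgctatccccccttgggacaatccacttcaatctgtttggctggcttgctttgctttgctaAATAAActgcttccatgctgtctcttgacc
Gm15915: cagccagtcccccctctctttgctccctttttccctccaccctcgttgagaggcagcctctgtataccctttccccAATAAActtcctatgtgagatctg

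How unusual such a gap between the parents was across the marrow was counted over all genes. Of 10659 genes with at least 100 UMIs in a parent, 48 (0.45%) had at most 5% of that parent's level in the other, 23 of them low in NZW and 25 low in NZB. The members took 6 of these 48 places, and 2 lay just outside, Gm11837 at 6.09% and 1700097N02Rik at 8.22%. With 1 mouse left out Gm11837 ran from 4.32% (without NZW mouse 3) to 8.67% (without NZW mouse 1), and the members inside were 6 or, without NZW mouse 3, 7. By level in the expressing parent Gm42031 ranked 4 among the 48, BC023719 12, Htatip2 13, AC139671.1 14, Gm15915 22 and Guca1a 30. The hybrid held a median of 52.0% of the expressing parent over the 48 (quartiles 43.5% and 60.8%), and 26 of them lay between 40% and 60%. The 6 members ran from 46.6% (Gm15915) to 66.0% (Guca1a), inside a range that went from 8.62% (Gm35082) to 126% (Ighg1).

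**Figure D2:**
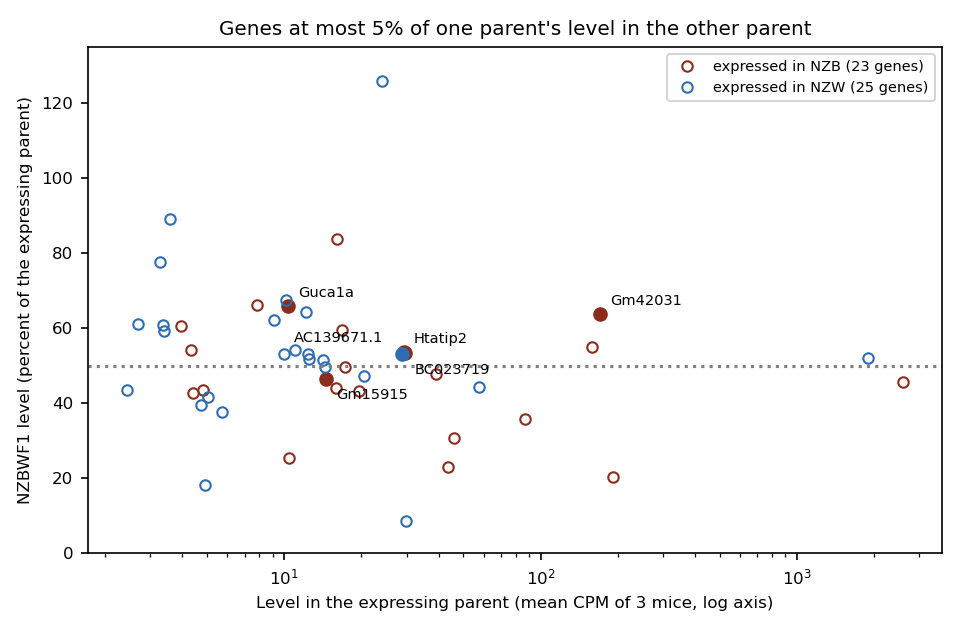
The 48 genes at most 5% of one parent's level in the other, by mean level in the expressing parent (x, CPM, log axis) and NZBWF1 level as a percent of it (y). Filled and named points are the 6 members among them, which lie between 46.6% and 66.0%, with the dotted line at 50%.

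The UMIs left in the low parent came from 86 NZW cells for Gm42031, 102 NZB cells for 1700097N02Rik, 19 NZW cells for Gm11837, 12 for Guca1a, 6 for Gm15915 and 3 for Htatip2, and from 10 NZB cells for AC139671.1. No such cell carried the barcode of a cell of another strain that held the gene, although 152 barcode sequences occurred in more than 1 library among the kept cells. RNA outside cells came from the same libraries that served to choose the genes, so its contrast is no independent evidence. In barcodes with fewer than 100 UMIs, each of the 8 genes was higher in every mouse of the expressing parent than in any of the low parent. The share of all genes with such an order was not counted. BC023719, for example, stood at 32.2 to 45.6 CPM in NZB and 0 in NZW, with 6.88 to 23.4 in NZBWF1. Some counts were small, with Gm11837 at 4 such UMIs in NZB mouse 2 against 1, 0 and 1 in NZW.

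The cell classes in which each gene was read were compared next. Cells were assigned by fixed marker genes to 14 classes, of which 12 had at least 10 cells in every mouse. The marker genes of a class were over 2-fold enriched in it, which the assignment itself fixes. A class was tested against the mean of the other classes on UMIs summed per mouse, in the mice of the expressing parent and NZBWF1, with edgeR's quasi-likelihood test and the mouse as a term. Of 96 gene and class tests, 39 passed an adjusted p of 0.05, and 30 of these held under all 3 ways of scaling the sums (TMM, DESeq2 size factors and total UMIs alone). No other test is called higher or lower here. AC139671.1, Guca1a, Gm15915 and Gm11837 had classes with no or few UMIs among those each class was set against, and some of these gave no SE, so their fitted folds and p-values depend on how zeros are handled. These 4 genes are described by their levels alone, and their calls, though counted in the 39 and the 30, are not used. Of the 30 held calls, AC139671.1 had 3 higher and 1 lower, Guca1a 5 higher and 1 lower, Gm15915 3 higher and Gm11837 2 higher. The limit to calls held in every scaling was set since 3 changed direction with total UMIs alone, each in neutrophils. Such calls were common. In NZB and NZBWF1 mice, of all genes 35.3% were called higher in B cells, 8.07% in basophils or mast cells, 44.2% in erythroid cells, 42.4% in granulocyte-monocyte precursors, 26.2% in stem cells, 21.2% in macrophages, 30.2% in monocytes, 20.6% in plasma cells and 30.6% in plasmacytoid dendritic cells. The shares called lower were 22.7% in B cells, 33.4% in erythroid cells, 16.3% in plasma cells and 13.6% in T cells. In NZW and NZBWF1 mice 29.5% were higher in B cells, 35.3% in granulocyte-monocyte precursors, 25.7% in macrophages, 44.1% in neutrophils and 19.7% in T cells, and 38.8% were lower in erythroid cells and 13.4% in stem cells.

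**Figure D3:**
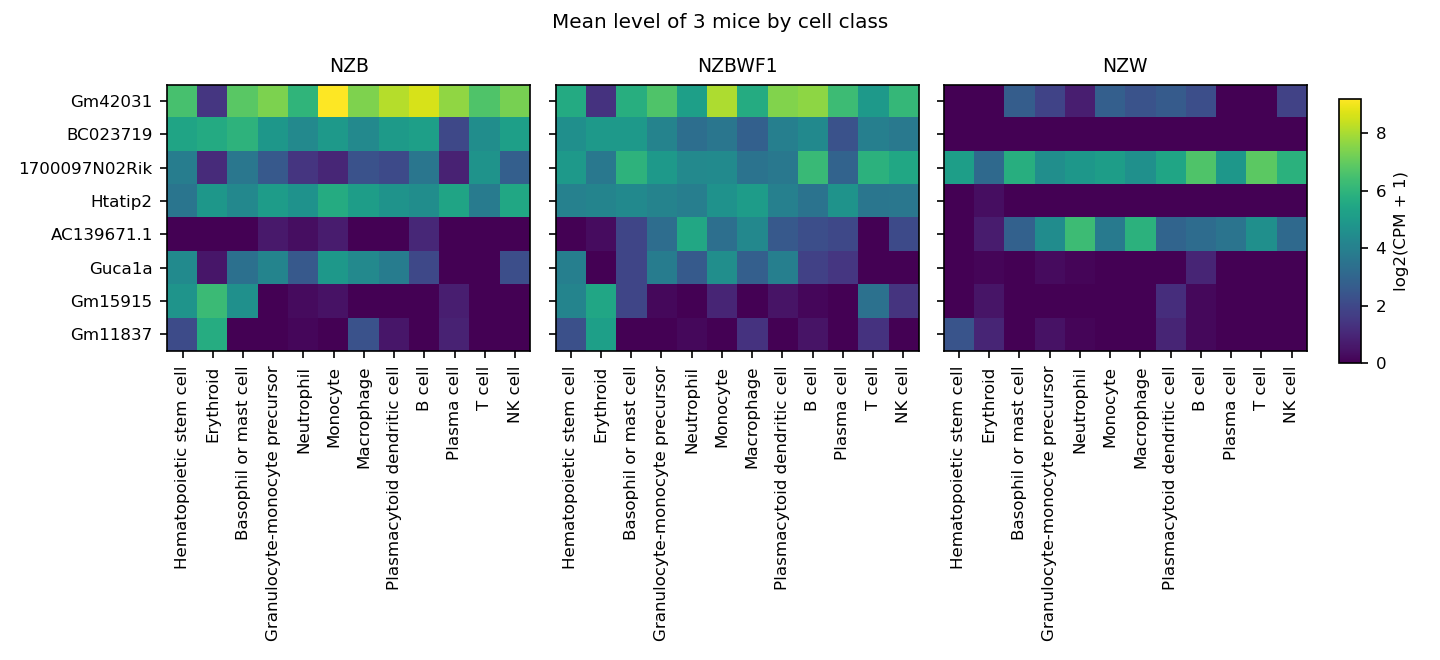
Mean level of 3 mice in each of the 12 cell classes, as log2(CPM + 1) by colour, for NZB, NZBWF1 and NZW. Gm15915 and Gm11837 are bright in the erythroid column, AC139671.1 in the neutrophil and macrophage columns, and Gm42031 is dark in the erythroid column of every strain.

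Gm15915 and Gm11837 were read mostly in erythroid cells. Of their UMIs in the 12 classes in the expressing parent and NZBWF1, 93.3% and 97.2% lay in erythroid cells. Gm15915 stood at 74.4, 77.0 and 79.7 CPM in the erythroid cells of NZB, at 26.1, 52.7 and 48.3 in NZBWF1 and at 0.713, 0.274 and 0.336 in NZW. Stem cells held 16 UMIs of it in NZB, at 12.7, 14.8 and 50.05 CPM, and 13 in NZBWF1, at 0, 39.9 and 10.8. In NZB, 35.1% of erythroid cells (median 8308 UMIs) had a UMI of it against 0.0544% of neutrophils (median 2286 UMIs), and 6.49% against 0.0272% once each cell was thinned to 1000 UMIs. Megakaryocytes of NZB, a class outside the 12, had a UMI of it in 4 of 34 cells, 5.88% after thinning. Among NZB basophils or mast cells it was read in 4 of 87, 2.30% after thinning.

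Gm11837 showed 59.9, 41.6 and 50.1 CPM in NZB erythroid cells, 41.7, 30.7 and 34.7 in NZBWF1, and 0, 1.10 and 1.68 in NZW, so the lowest NZB mouse fell just under the highest hybrid. Stem cells held 2 UMIs of it in each of the 3 strains.

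AC139671.1 was read most in neutrophils and macrophages, with 74.8% of its UMIs in the 12 classes of NZW and NZBWF1 lying in neutrophils. The NZW mice stood at 79.5, 80.1 and 75.7 CPM there, NZBWF1 at 46.6, 44.1 and 43.7, and NZB at 0.772, 0 and 0. NZW macrophages, at 39.5, 53.1 and 84.4 CPM on 29 UMIs, overlapped the neutrophils. In NZW the level went from 0 UMIs in stem cells over 19.98 to 21.8 CPM in the precursors to 75.7 to 80.1 in neutrophils, without overlap between the 3 classes.

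Gm42031 was read in almost every class but red cells. In NZB monocytes it reached 546, 657 and 524 CPM, in B cells 413, 428 and 365, and in plasmacytoid dendritic cells 300, 313 and 255, each set apart from the next without overlap. NZB erythroid cells held 11 UMIs, or 0.908, 2.88 and 1.43 CPM. Monocytes were higher than the mean of the classes by 2.07 on the log2 scale (SE 0.08, adjusted p = 1.45e-44), with B cells at 1.51, plasmacytoid dendritic cells at 1.13, granulocyte-monocyte precursors at 0.76 and plasma cells at 2.05 also called higher. The plasma cell value shrank to 0.59 with total UMIs alone. Erythroid cells were lower, at -6.11 (SE 0.20). In NZB, 71.5% of monocytes (median 2736 UMIs) had a UMI of Gm42031 against 1.70% of erythroid cells (median 8308), and 41.2% against 0.618% after thinning.

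Guca1a was a myeloid and progenitor RNA at low level. The highest NZB values were in monocytes, at 30.2, 27.3 and 29.3 CPM, followed by stem cells at 25.5, 29.5 and 5.005, which rested on 13 UMIs. Granulocyte-monocyte precursors stood at 20.98, 16.7 and 12.96 CPM, macrophages at 24.8, 11.8 and 21.2 on 7 UMIs, and plasmacytoid dendritic cells at 14.2, 17.2 and 9.28. T cells held no UMI of it in any strain.

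BC023719, Htatip2 and 1700097N02Rik had UMIs in all 12 classes of the expressing parent. BC023719 rested on as few as 4 UMIs in NZB plasma cells, 6 in T cells and 7 in macrophages, beside the 32.2 to 45.6 CPM of RNA outside cells. It was higher in erythroid cells by 1.02 on the log2 scale (SE 0.12, adjusted p = 6.28e-13). In plasma cells it was lower, at -1.09 (SE 0.39, adjusted p = 0.0221). The highest NZB mean of BC023719 was in basophils or mast cells, at 61.1 CPM against 47.8 in erythroid cells. That class was not called (0.78, SE 0.35, edgeR adjusted p = 0.163), but passed with total UMIs alone (1.13, edgeR adjusted p = 0.0230). Htatip2 was higher in plasma cells by 2.18 (SE 0.22, adjusted p = 3.56e-16), in macrophages by 0.83 and in monocytes by 0.50. With total UMIs alone monocytes, at 0.85, stood above plasma cells, at 0.69, and in NZB the levels of plasma cells (45.1, 40.02 and 36.6 CPM) and monocytes (43.3, 47.0 and 59.7) overlapped. It was lower in B cells, at -0.93. 1700097N02Rik was a lymphocyte-rich RNA, higher in T cells by 1.46 (SE 0.30, adjusted p = 4.26e-05) and B cells by 1.23 (SE 0.11, adjusted p = 1.19e-15) and lower in erythroid cells, at -1.96 (SE 0.19).

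The low parent was not uniformly silent across classes for 1700097N02Rik. NZB T cells stood at 29.3, 30.2 and 16.4 CPM against 123, 112 and 114 in NZW, on 7 and 36 UMIs. NZB stem cells, at 25.5, 11.1 and 5.005 CPM, overlapped NZW, at 51.7, 10.5 and 40.9. In monocytes, by contrast, NZB stood at 1.31, 0.635 and 1.05 CPM and NZW at 31.7, 37.8 and 32.9.

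Whether the hybrid matched the parent that makes the RNA was then tested. NZBWF1 was compared with the expressing parent on UMIs summed per mouse in the class with most UMIs of each gene, with edgeR over all genes of that class. Of the 8, 4 passed an adjusted p of 0.05, all lower in NZBWF1, namely Gm42031 in monocytes, Gm15915 in erythroid cells, and Htatip2 and AC139671.1 in neutrophils. Over all genes, the same test called 16.1% in monocytes, 1.67% in erythroid cells, 3.83% in neutrophils and 3.2% in granulocyte-monocyte precursors against NZB, and 1.38% in neutrophils and 0.652% in B cells against NZW. For the further classes with a called member it was 0.455% in B cells, 0.628% in macrophages, 0.646% in plasma cells and 1.92% in plasmacytoid dendritic cells against NZB, and 1.09% in granulocyte-monocyte precursors and 1.05% in plasmacytoid dendritic cells against NZW. The libraries of the expressing parent also served to choose the genes, as did those of NZBWF1 for most members. These differences and their p-values are therefore not independent of the choice.

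Gm42031 in monocytes fell by 1.18 on the log2 scale (SE 0.14, adjusted p = 4.31e-06), to 44.2% of NZB (95% interval 36.3% to 53.9%). The hybrid mice, at 322, 210 and 274 CPM, lay under the NZB mice without overlap. It was tested in 9 classes and lower in all 9, past the threshold in 7, with macrophages at 28.5% (17.3% to 46.8%) and plasmacytoid dendritic cells at 60.9% (49.8% to 74.3%) as the extremes.

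Htatip2 in neutrophils fell by 0.99 (SE 0.22, adjusted p = 0.0186), to 50.5% of NZB (36.3% to 70.1%), with 17.02, 14.1 and 11.3 CPM in the hybrids and 29.7, 17.9 and 26.3 in NZB. The call was lost without NZB mouse 1 (adjusted p = 0.0610), NZB mouse 3 (0.0672) or NZBWF1 mouse 3 (0.106), and with cells of at least 2000 UMIs (0.140), while the difference with 1 mouse left out stayed between -1.21 and -0.81. Granulocyte-monocyte precursors and monocytes were also called, at 51.6% and 46.7%.

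AC139671.1 in neutrophils fell by 0.82 (SE 0.15, adjusted p = 0.00472), to 56.7% of NZW (45.9% to 70.1%). In granulocyte-monocyte precursors it fell by 1.52 (SE 0.28, adjusted p = 0.000458), to 34.98% (23.7% to 51.6%). Gm15915 in erythroid cells fell by 0.76 (SE 0.16, adjusted p = 0.00613), to 58.9% of NZB (47.2% to 73.5%).

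The other 4 did not pass in their class. BC023719 in erythroid cells stood at 66.1% of NZB (52.0% to 84.1%, edgeR adjusted p = 0.0738), although in monocytes, neutrophils and granulocyte-monocyte precursors it was called, at 37.1%, 40.3% and 58.3%. Gm11837 in erythroid cells stood at 68.6% (53.5% to 88.0%, edgeR adjusted p = 0.139) and 1700097N02Rik in B cells at 70.5% of NZW (54.2% to 91.7%, edgeR adjusted p = 0.471), with hybrids at 64.0, 73.9 and 82.8 CPM, all under NZW at 101, 97.1 and 106. Guca1a in granulocyte-monocyte precursors stood at 81.0% of NZB (57.3% to 115%, edgeR adjusted p = 0.613), and in none of its 3 tested classes did the interval of the difference exclude the NZB level. A level of 50% lay inside the interval for Gm42031, Htatip2, AC139671.1 and Gm15915, and under it for the other 4.

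**Figure D4:**
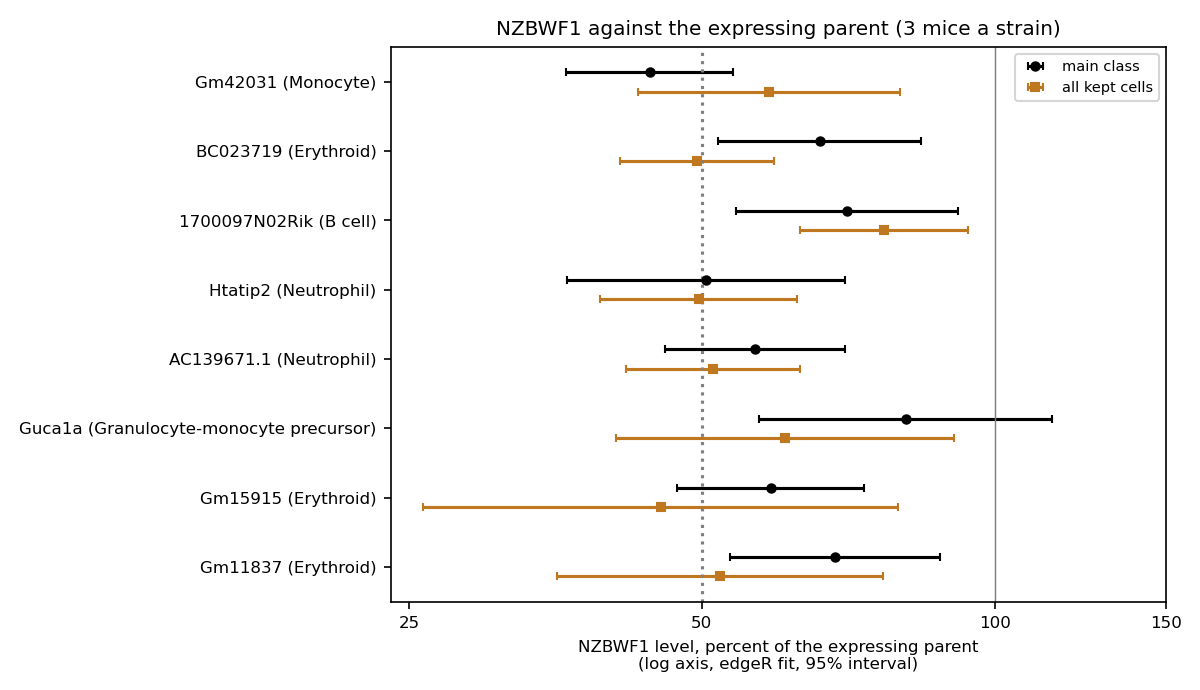
NZBWF1 level as a percent of the expressing parent (log axis) from the edgeR fit, with 95% intervals, in the class with most UMIs of each gene (circles) and over all kept cells (squares), 3 mice a strain. Over all cells every interval but that of 1700097N02Rik (63.0% to 93.9%) holds the dotted line at 50%.

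Summed over all kept cells, the fitted hybrid level was 58.6% of NZB for Gm42031, 49.5% for BC023719, 49.7% for Htatip2, 60.9% for Guca1a, 45.3% for Gm15915 and 52.2% for Gm11837, and 51.3% of NZW for AC139671.1 and 76.9% for 1700097N02Rik. Of these, 5 passed the test, in place of 4 by class, where 10.4% of all genes were called against NZB and 2.04% against NZW. BC023719 (adjusted p = 0.000536) and Gm11837 (0.0356) were gained and Gm15915 (0.0768) was lost, by edgeR.

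The hybrid difference itself varied between classes for 1 gene. In a test of the interaction of strain and class, 1700097N02Rik had an adjusted p of 0.0216 (edgeR, F = 3.26), while the same test called 4.13% of all genes in these mice. The remaining 7 did not pass, with adjusted p from 0.317 (Gm42031) to 0.993 (Gm11837), where 3.99% of genes were called in NZB and NZBWF1 mice. In plasmacytoid dendritic cells 1700097N02Rik stood at 34.0% of NZW (18.9% to 60.9%), with hybrids at 3.68, 18.7 and 13.4 CPM and NZW at 42.5, 44.6 and 37.2. The highest value was in erythroid cells, at 152% (95.9% to 242%), where hybrids at 9.12, 8.60 and 17.6 CPM overlapped NZW at 9.27, 9.87 and 4.70. In granulocyte-monocyte precursors it stood at 119% (89.9% to 158%), and there every hybrid, at 40.1, 23.7 and 27.2 CPM, lay above every NZW mouse, at 23.1, 21.8 and 22.2. The interaction call was lost when any 1 of the NZW mice (adjusted p = 0.111, 0.152 and 0.353) or NZBWF1 mouse 3 (0.251) was left out, with a stricter gate (0.0701) and with a mitochondrial limit of 5% (0.469).

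**Figure D5:**
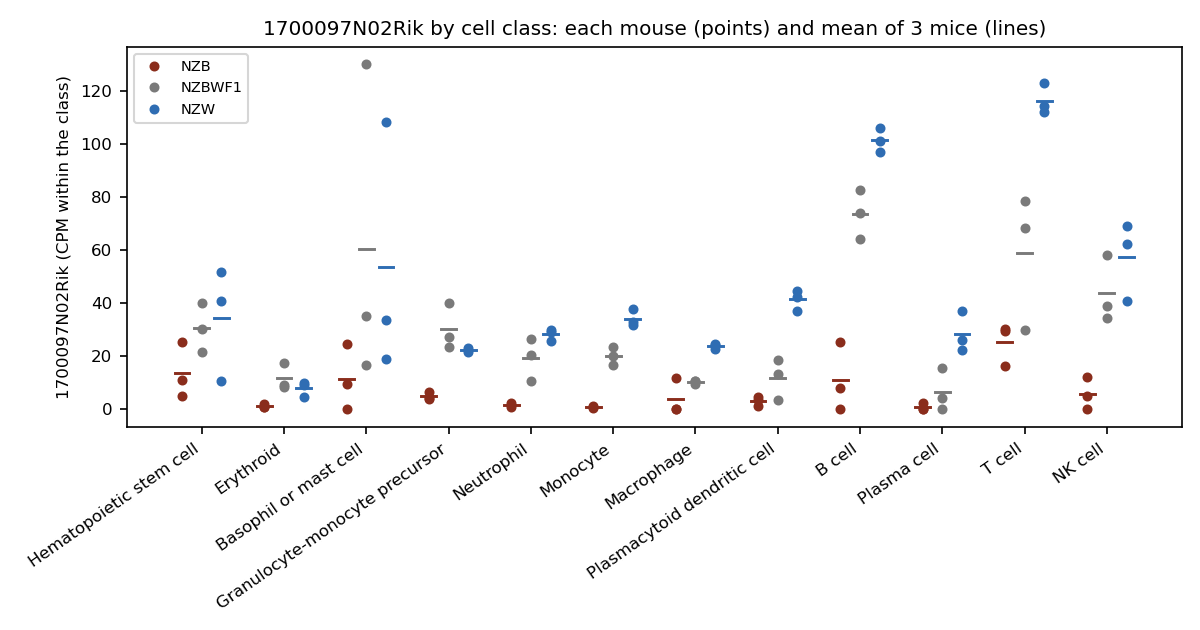
1700097N02Rik in each mouse (points) and the mean of 3 mice (lines) in the 12 cell classes, in CPM within the class. NZBWF1 lies under NZW without overlap in B, T and plasma cells, monocytes, macrophages and plasmacytoid dendritic cells, and above it in granulocyte-monocyte precursors without overlap, while in erythroid cells the hybrid mean is higher and the mice overlap.

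Genes beside the members were examined for strain differences of their own. Of the 5 nearest genes on each side of a member, 80 in all, 29 passed the filter on low counts in the class of that member, and the parents differed in 14 of the 29 by edgeR at the threshold of 0.05. The share of all genes called was 22.7% in monocytes, 9.54% in erythroid cells, 2.3% in B cells, 12.9% in neutrophils and 12% in granulocyte-monocyte precursors. No test was made of the neighbours as a list.

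Beside AC139671.1, which was high in NZW, Ly6i was lower in NZB neutrophils, at -6.51 on the log2 scale (SE 1.10, adjusted p = 0.000539) and Ly6e, 18735 bases away, was higher in NZB by 2.73 (SE 0.34, adjusted p = 0.00109). The neighbours thus moved in opposite directions. Around BC023719, the nonclassical class I genes H2-T22 and H2-T23 were lower in NZB erythroid cells, at -3.43 (SE 0.43) and -1.33 (SE 0.18), the reverse of BC023719.

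Dnah8 was the only called neighbour of 1700097N02Rik and ran with it, lower in NZB B cells at -2.21 (SE 0.37, adjusted p = 0.000494). Ntn4 ran with Gm15915, higher in NZB erythroid cells by 1.28 (SE 0.27, adjusted p = 0.00172), and Snrpf was higher by 0.47 (SE 0.09). Near Gm11837, Otud6b was higher in NZB by 1.65 (SE 0.21) and Decr1 lower, at -0.91 (SE 0.14). Near Gm42031, Orc6, Vps35 and Wdr83os were higher in NZB monocytes by 1.19, 0.51 and 0.57, and Dhps was lower, at -0.69. Ccnd3 near Guca1a was higher by 0.72. Of the other nearest genes, Glo1 and Tmem55a were tested and not called (adjusted p = 0.111 and 0.673, edgeR). Those of Htatip2, Prmt3 and Dbx1, did not pass the filter in neutrophils, and its 1 tested neighbour, Nav2, was not called (adjusted p = 0.426, edgeR).

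The 8 genes of a nuclear import list, set beside Htatip2 for its known role, were all detected. Of the 8, 7 could be tested in at least 1 class, and 5 of 54 gene and class tests differed between NZB and NZW, in Ran, Kpna2 and Kpna4, 4 of them higher in NZB. Of all genes, that contrast called 12% in granulocyte-monocyte precursors, 22.7% in monocytes, 12.9% in neutrophils and 27.1% in plasma cells, the classes of those 5 calls. Ran, the GTPase that drives import, had 90894 UMIs and stood at 788 CPM in NZB, 803 in NZW and 762 in NZBWF1 over all cells.

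The genes most like each member over 108 sums of class and mouse were found by Pearson's correlation of log2(CPM + 1) among 11711 genes, as a description, since the sums share mice and depth. They also span the 3 strains, so a gene with the same gap between the parents as the one that chose the member must run with it, and nothing is read from that. Htatip2 ran closest to Ftl1, the ferritin light chain (r = 0.910), and to BC023719 (0.825). BC023719 itself was closest to Ftl1 (0.853) and the tropomyosin copy Tpm3-rs7 (0.840), and Gm42031 to Tpm3-rs7 (0.831) and Ftl1 (0.811). Ftl1 and Tpm3-rs7 are themselves among the 48 genes that were low in 1 parent. Guca1a was closest to Ifi202b (0.637) and Gm42031 (0.634). Among the RNAs high in NZW, 1700097N02Rik was closest to Dnah8 (0.637), and AC139671.1 to Pilrb1 (0.699) and Gm38843 (0.652). Of the pair read mostly in erythroid cells, Gm15915 was closest to Mfsd2b (0.691) and Pawr (0.665) and Gm11837 to Gm37915 (0.793) and Slc26a1 (0.726).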

How the data were processed

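RNA of femur marrow from 9 mice was read by the 10x Genomics 3′ assay. The authors deposited UMI counts per gene and barcode, made with bcl2fastq 2.20 and Cell Ranger 3.1.0 on mm10; the annotation release and use of strand are not given in the sources used here. Cells with at least 1000 UMIs, 500 genes and at most 10% mitochondrial UMIs were kept. Of these, the 2526 with the highest Scrublet doublet scores within their mouse were removed. The number per mouse was preset, at 0.8% per 1000 barcodes called as cells. By marker scores 33686 of 36525 cells (92.2%) were assigned to 14 classes. Counts were summed per mouse, or per mouse and class, and fitted with edgeR 4.0.16 (TMM scaling, filterByExpr, robust quasi-likelihood F test, two-sided) over all genes, with Benjamini-Hochberg adjustment and a threshold of 0.05. DESeq2 1.42.0 was an alternative. The fits were tested on simulated data. Positions, overlaps and sequences came from GENCODE M21 on GRCm38, and shared sequence from blastn 2.17.0. The members and lists were chosen with earlier results of these data known. Named besides the 8 were their nearest genes, the 2 genes most like each, and 2 lists of phototransduction and nuclear import genes, of which some genes are not reported here. Other named neighbours and genes of the count of absent genes were picked after their values were seen. Intervals on UMIs cover counting error only. The labels name separate mice as replicates. No column of per-sample values was left unused.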

Additional observations from a re-analysis of the deposited data

Results flagged for a closer look

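The difference between NZBWF1 and NZW in 1700097N02Rik varied among the 12 cell classes by the test of the interaction itself (edgeR adjusted p = 0.0216). Relative to NZW the hybrid stood at 34.0% in plasmacytoid dendritic cells, at 119% in granulocyte-monocyte precursors and, highest, at 152% in erythroid cells. The gene had 24 UMIs in the hybrid plasmacytoid dendritic cells and 39 in those of NZW, and 145 and 122 in the precursors. The call was lost without any 1 of the 3 NZW mice and without NZBWF1 mouse 3. NZBWF1 mouse 1 held 1 UMI in 112 plasmacytoid dendritic cells.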

How the results depend on the processing

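The count of members lower in NZBWF1 than in the expressing parent was 4 and stayed between 3 and 6 under every alternative run, and between 3 and 4 when 1 mouse was left out. BC023719 passed with all kept cells summed (adjusted p = 0.000536) and without a filter on low counts (0.0344), as 1700097N02Rik did without that filter (0.0465), by edgeR. Gm15915 was lost with a mitochondrial limit of 5% (0.749). That limit also left 5 of 8 members with a called class, since the other 3 could not be tested. This count includes AC139671.1, whose class calls are not used above. The limit moved the low parent's level to 2.14% for Gm15915 and 12.5% for Gm11837. The interaction count of 1 was 0 under that limit and under a stricter gate, and ranged from 0 to 1 when 1 mouse was left out; the cause was not tested. The 48 nearly absent genes became 23 at a limit of 1%, 78 at 10% and 82 with at least 30 UMIs, by construction, and 43 to 49 with 1 mouse left out. Called neighbours, 14 of 29, ranged from 13 to 14 with 1 mouse left out, and were 21 of 64 with 10 genes on each side, 10 of 22 with the limit of 5% and 11 of 27 with at least 2000 UMIs. Scaling by total UMIs alone, chosen after seeing the data, turned 3 called class values, all in neutrophils: BC023719 from 0.36 to -0.59, 1700097N02Rik from 0.89 to -0.27 and Htatip2 from 0.75 to -0.20 on the log2 scale. The hybrid differences and the leading class of each member kept their direction under the alternatives run.

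Mice share replicate numbers across strains. Deviations of same-numbered mice correlated at -0.02 to 0.50, over 0.1 in 8 of 9 pairs, and 9 of 9 mice correlated best with their own number, a hint from the data and not the design. The numbers were therefore not taken as pairs. With the replicate block 4 members and 14 neighbours were called, and no call on a member changed.

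Levels near 1 UMI per library, as in the low parent and in small classes, are limited by depth.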
